A study of Schizosaccharomyces pombe with 4 samples.

Results

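New histone H3 in fission yeast (Schizosaccharomyces pombe) was compared between clr3-CDx2 OFF and wt OFF cells, the pair of groups in which a Clr4 tethering system was switched off. The pair is 2 of the 4 arrays of the series, 1 array a group, and it was chosen by label and not by any measured value. Cells of both groups carried H3T7 and cdc25-22, and the first group carried clr3-CDx2 in addition. The nature of the CDx2 form of clr3 was not given in the sources used here. The source label calls the cells log-growing, although the protocol arrests them. Per the growth protocol the cells also had a tetO-ade6+ reporter and TetR-Clr4 under a thiamine-repressible promoter. In the OFF state this promoter was repressed with 5 µg/ml thiamine, and 2.5 µg/ml tetracycline was added. Cultures grew at 26 °C and were held at 36 °C for 4 h, which arrests cdc25-22 cells at G2/M. In the arrest, 1 µM β-estradiol given for 2 h switched on Cre, which swaps the HA tag on H3 for T7. They were then fixed with 1% formaldehyde. The other pair, clr3-CDx2 ON against wt ON, had grown for 20 generations without thiamine, with TetR-Clr4 made. It shares no array with the OFF pair and was used to read the same probes a second time, under another medium and tethering state.

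Clr3 is a histone deacetylase that acts on histone H3 within SHREC, a silencing complex that also holds Clr1, Clr2 and the remodeler Mit1. In fission yeast, SHREC is known to be recruited to heterochromatin at centromeres, the mating-type region and the ends of chromosomes I and II, where it limits access of RNA polymerase II and the exchange of histones. Heterochromatin there carries methylation of H3 lysine 9, placed by Clr4 and bound by chromodomain proteins such as Swi6, Chp1 and Chp2. Genes next to the ends of chromosomes I and II are weakly transcribed in growing cells, and the ends of chromosome III hold the ribosomal DNA repeats.

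Each of 41020 probes, one every 300 bp, gave a log2 ratio of H3-T7 ChIP (Cy5) over whole-cell input (Cy3), with the array median set to 0. H3-T7 can enter chromatin after the tag exchange, so the ratio follows new H3. Total H3 was not measured, so little new H3 and little H3 of any age cannot be told apart. Differences are clr3-CDx2 minus wt on the log2 scale, and with 1 array a group they have no replicate check and no test within the pair. Each SD was taken over probes, which are not replicates. Over all probes the wt OFF and clr3-CDx2 OFF arrays correlated at r = 0.81, as a description.

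Most genes called higher lay within 150 kb of the ends of chromosomes I and II, and the stretch before 5 of the 15 highest genes is shown, since the higher H3-T7 level of clr3-CDx2 reached into it. The 5 were picked after their values were seen. Each sequence is the 250 bases before the annotated start of the gene, from RefSeq, assembly ASM294v3, written 5′ to 3′ in the direction of the gene. The 5 are eno102 (chrII:59691-59940, minus strand), cmt2 (chrII:65552-65801, minus strand), nhe1 (chrI:51739-51988, plus strand), SPBC1289.14 (chrII:4411991-4412240, plus strand) and say1 (chrII:4460309-4460558, plus strand). Capitals mark 2 motifs that were searched on both strands, TGACGT, the core bound by factors of the Atf1 family, and TTTTTTTT, a run of 8 T.
eno102: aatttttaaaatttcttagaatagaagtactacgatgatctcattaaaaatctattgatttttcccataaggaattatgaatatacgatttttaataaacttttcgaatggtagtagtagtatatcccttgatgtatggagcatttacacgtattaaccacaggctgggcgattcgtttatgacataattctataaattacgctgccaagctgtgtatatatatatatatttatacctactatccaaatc
cmt2: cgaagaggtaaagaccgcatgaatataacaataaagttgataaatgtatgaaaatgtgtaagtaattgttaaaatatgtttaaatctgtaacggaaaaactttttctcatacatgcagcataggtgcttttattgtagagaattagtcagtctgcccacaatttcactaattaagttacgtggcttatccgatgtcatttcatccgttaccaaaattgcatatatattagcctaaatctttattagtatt
nhe1: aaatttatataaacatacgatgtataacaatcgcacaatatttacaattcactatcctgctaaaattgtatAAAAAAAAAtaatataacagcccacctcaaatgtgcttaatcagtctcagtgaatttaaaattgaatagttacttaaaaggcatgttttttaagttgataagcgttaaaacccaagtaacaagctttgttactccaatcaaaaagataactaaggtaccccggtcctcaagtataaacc
SPBC1289.14: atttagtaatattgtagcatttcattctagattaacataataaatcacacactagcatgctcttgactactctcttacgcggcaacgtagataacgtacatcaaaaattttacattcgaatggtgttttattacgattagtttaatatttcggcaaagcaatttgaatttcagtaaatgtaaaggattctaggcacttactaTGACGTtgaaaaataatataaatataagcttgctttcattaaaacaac
say1: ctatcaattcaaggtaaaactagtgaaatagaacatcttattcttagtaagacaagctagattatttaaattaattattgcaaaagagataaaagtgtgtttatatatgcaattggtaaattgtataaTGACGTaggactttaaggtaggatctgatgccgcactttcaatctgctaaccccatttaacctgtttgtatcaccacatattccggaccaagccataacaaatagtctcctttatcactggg

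Probes within 300 bp of the eno102 window stood at -1.46 in wt OFF and 0.38 in clr3-CDx2 OFF, a difference of 1.84 (SD 0.36 over 3 probes). At the cmt2 window they stood at -1.37 and 0.01 (3 probes), at the nhe1 window at -0.89 and 0.48 (3 probes), at the SPBC1289.14 window at -0.97 and 0.51 (2 probes), and at the say1 window at -1.15 and -0.25 (2 probes). In each of the 5 windows wt OFF was well below the array median, and in 4 of them clr3-CDx2 OFF was at or above it. The 5 do not stand for the rest: of the 14 such windows that had probes, 6 differed by more than the gene behind them and 8 by less, with window differences from 0.36 to 1.84. Before SPAPJ695.02, the highest gene, the window differed by 0.93. The say1 window, shown above, differed by 0.90, less than its gene, and the ght7 window, not shown, by 1.31. Windows and genes were compared under a single placement of the genes, on which several gene values depend, as given below. Among the windows before all 15 highest genes, TGACGT was present only before SPBC1289.14 and say1, which are both among the 5 shown. TTTTTTTT was present before nhe1, and also before SPBPB10D8.01 and SPAC212.04C, which are not shown. The share of TGACGT in the 5 shown is thus raised by their choice. Of all 5112 windows of this length, 5.52% held TGACGT and 18.9% held TTTTTTTT. Among the 76 genes that lay 25 to 100 kb from an end of chromosome I or II, the shares were 9.21% and 30.3%. The median GC content of these windows was 30.8%, against 32% for all windows.

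New H3 was higher in clr3-CDx2 OFF than in wt OFF over a broad belt at the ends of chromosomes I and II. Between 25 and 100 kb from an end, the mean over 930 probes was -0.57 in wt OFF and -0.01 in clr3-CDx2 OFF, so that the belt stood below the array median in wt and at it in clr3-CDx2. The difference was 0.57 (SD 0.57 over probes), and 84% of these probes were higher in clr3-CDx2. The interior of chromosomes I to III was taken as 150 kb or more from an end, outside the centromeres and the mating-type region. Its 37643 probes averaged -0.01 in wt OFF and -0.02 in clr3-CDx2 OFF. By 25-kb steps from the end the difference was 0.11, 0.41, 0.69, 0.59, 0.31 and 0.18. It was largest at 50 to 75 kb and small in the outermost step, where 0.11 went to -0.16 without the probes whose names carry an f or m suffix, the surroundings of which were 94.7% repeated sequence on average. Nearly all of the difference was in the Cy5 channel: between 25 and 100 kb the Cy5 part was 0.52 and the Cy3 input part -0.05.

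**Figure D1:**
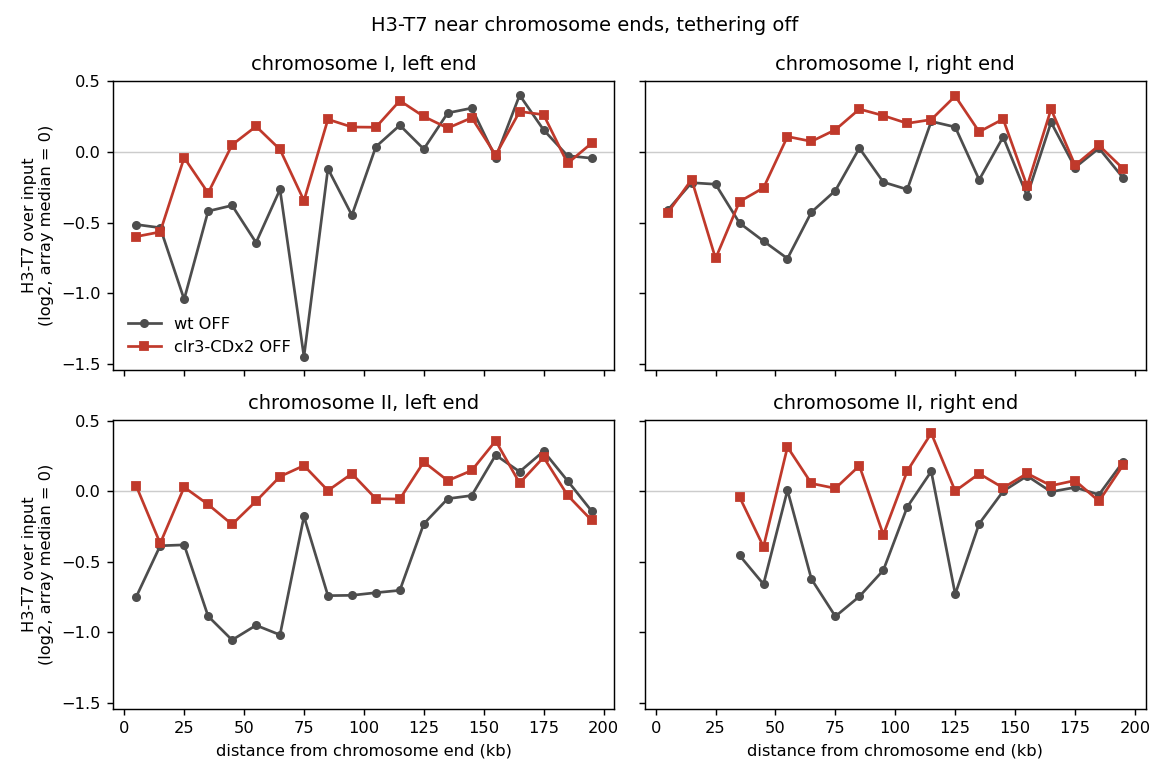
Mean H3-T7 over input (log2, array median at 0) in 10-kb steps from the ends of chromosomes I and II on the wt OFF array (grey circles) and the clr3-CDx2 OFF array (red squares). At the left end of chromosome I the wt value at 70 to 80 kb was -1.45 against -0.34 in clr3-CDx2.

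The belt was present at 4 of 4 ends, with a different width at each. At the left end of chromosome II the differences per 25 kb were 0.48, 0.78, 0.86, 0.72, 0.61 and 0.20, so that wt OFF was depleted out to 125 kb. At the left end of chromosome I they were 0.15, 0.41, 0.69, 0.59, 0.15 and -0.01. At the right end of chromosome I they were -0.15, 0.14, 0.62, 0.40, 0.23 and 0.24. At the right end of chromosome II, where the assembly runs 30.9 kb past the last probe, the values from 25 kb on were 0.33, 0.58, 0.63, 0.26 and 0.31. The outermost 25 kb thus varied between ends, with clr3-CDx2 OFF above wt OFF at the left end of chromosome II and below it at the right end of chromosome I. The ends of chromosome III, next to the ribosomal DNA, showed no belt of this width. There the outer 25 kb differed by -0.11 on the left and 0.40 on the right, the 25-to-50-kb step by 0.31 and 0.07, and the 4 further steps on both sides lay between -0.12 and 0.09.

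The difference in the belt was larger between genes than in them. Between 50 and 75 kb from an end, the 174 probes between protein-coding genes averaged -0.98 in wt OFF and -0.01 in clr3-CDx2 OFF, a difference of 0.98 (SD 0.54), and 96.6% were higher in clr3-CDx2. The 151 probes in genes of the same step averaged -0.14 and 0.21, a difference of 0.35 (SD 0.48). From 100 to 125 kb, probes between genes still differed by 0.68 and probes in genes by 0.08. In the interior of chromosomes I to III the values were 0.08 between genes (SD 0.29, 7579 probes) and -0.02 in genes (SD 0.25, 30064 probes). Within the belt the difference was present for each orientation of the flanking genes. From 25 to 100 kb, probes between convergent genes differed by 0.77, between divergent genes by 0.69 and between genes in tandem by 0.82. Taken by stretch between genes, the medians were 1.02 for 13 convergent, 0.68 for 19 divergent and 0.87 for 32 tandem stretches. Probes of either strand gave the same value, 0.57 and 0.56.

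**Figure D2:**
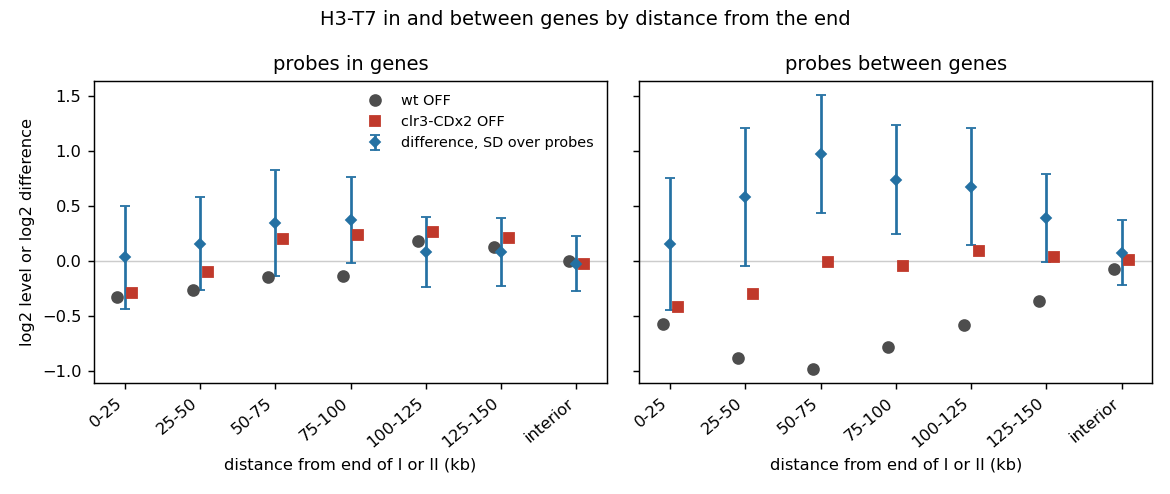
Mean H3-T7 level on the wt OFF array (circles) and the clr3-CDx2 OFF array (squares), and their difference with its SD over probes (diamonds), for probes in genes (left) and between genes (right), by distance from an end of chromosome I or II. Between genes wt OFF falls to -0.98 at 50 to 75 kb while clr3-CDx2 OFF stays at -0.01, and in genes the same step stands at -0.14 and 0.21. The interior points cover chromosomes I to III.

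The difference was also read at like levels of H3-T7. Probes were sorted by their level on the wt ON array, which took no part in the OFF difference. Among probes at -1.5 to -1 on that array, the 194 in the belt differed by 0.67 (SD 0.63) in the OFF pair. The 651 in the interior of chromosomes I to III differed by 0.03 (SD 0.31). The match is not one of wt OFF levels, which were -0.85 and -0.67 in these sets. Among probes at 0 to 0.5, the 179 in the belt differed by 0.37 and the 13460 in the interior by 0.00. Across the 6 strata of level, the belt ranged from 0.26 to 0.90 and the interior from -0.01 to 0.10. Within the belt the difference also held for sequence that occurs once: 718 probes without a repeated stretch of 30 bases in the surrounding 300 bp differed by 0.63, against 0.37 for 174 probes for which most of that window was repeated.

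In runs of probes, the higher signal formed 67 domains and the lower signal 1. To call one, the running median of 5 probes had to stay past a 1.5-fold difference for 5 probes or more. The higher domains held 666 of 40740 probes (1.63%), the lower domain held 9 (0.0221%), and the higher ones covered 192 kb in all, with a median length of 1.86 kb. With normexp background correction the counts were 76 higher and 39 lower, so the rarity of lower domains depended on the starting signal. Of the 67 higher domains called without normexp, 42 lay within 150 kb of an end of chromosome I or II and 28 of them 25 to 100 kb from it. Another 6 lay in the centromeres, the mating-type region or the rDNA ends, 3 elsewhere on chromosome III and 16 elsewhere on chromosomes I and II. Between genes lay 76.4% of the probes of higher domains. The ON pair, which uses other arrays, read higher in clr3-CDx2 in 62 of the 67, with a median of 0.52 against 0.96 in the OFF pair. Within 150 kb of an end this was 42 of 42, with ON values of 0.02 to 1.24. The input had a larger part in the ON pair than in the OFF pair. Over all probes 25 to 100 kb from an end, the ON difference of 0.51 had a Cy5 part of 0.35 and an input part of -0.17. The ON readings are thus not a repeat of the Cy5 signal alone. Elsewhere on chromosomes I and II the ON pair read higher in 13 of 16, with ON values of -0.42 to 1.11 and a median of 0.24. The highest of these, 1.11, was the domain at clr3 itself.

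**Figure D3:**
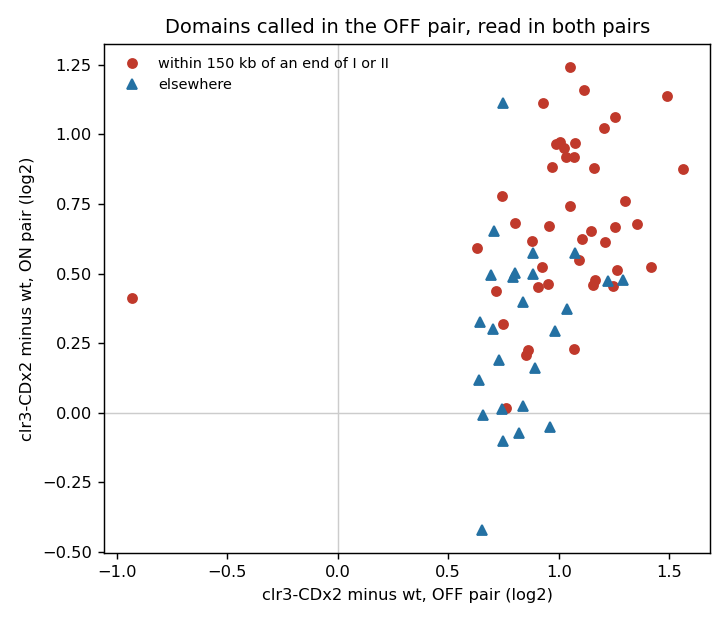
Each point is 1 domain called in the OFF pair, placed by its mean difference, clr3-CDx2 minus wt, in the OFF pair (x axis, log2) and in the ON pair (y axis, log2). Red circles lie within 150 kb of an end of chromosome I or II and blue triangles elsewhere. The lone point at the left is the 1 lower domain, at -0.93 in the OFF pair and 0.41 in the ON pair.

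The domain with the largest summed difference lay at the left end of chromosome II, at 57601 to 69360 in the coordinates of the array, whose build was not given in the sources used here. Its 39 probes averaged -1.01 in wt OFF and 0.15 in clr3-CDx2 OFF, a difference of 1.16, and 0.88 in the ON pair. It covered eno102, SPBPB21E7.02C, SPBPB21E7.10, SPBPB21E7.11, cmt2 and SPBPB21E7.05. The next, at 70801 to 81960 on chromosome I, held 38 probes around SPAPJ695.02 and SPAPJ695.01C and differed by 1.10 (from -1.39 to -0.29). Others in order were at ght7 on chromosome II (1.27, 25 probes), at SPAC212.04C to SPAC212.01C on chromosome I (1.08, 27 probes), at the SPBPB10D8.04C to SPBPB10D8.07C transporter genes on chromosome II (0.88, 33 probes), at fub2 at the right end of chromosome II (1.20, 21 probes) and at nhe1 on chromosome I (1.30, 19 probes). A domain between SPAC869.01 and pfl9, which encodes a cell-surface glycoprotein, touched no gene and differed by 1.42 over 14 probes. The 2 that complete the first 10 were at SPCC569.01C near the right end of chromosome III (1.29, 13 probes) and at SPBC1348.01 at the left end of chromosome II (1.12, 15 probes). In both of these, 100% of the probes carried an f or m suffix, as did 92.6% at SPAC212.04C and 75.8% at SPBPB10D8.04C. The values of these domains may thus not be readings of single loci. At each of the first 10 domains the ON difference was also above 0, from 0.48 at SPCC569.01C to 1.16 at SPBC1348.01.

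Among 4598 protein-coding genes with at least 3 probes, of 5113 in all, 25 were at least 1.5-fold higher in clr3-CDx2 OFF (0.544% of genes) and 11 at least 1.5-fold lower (0.239%). With normexp these counts were 60 and 64, without the excess of higher genes. Of the 76 genes 25 to 100 kb from an end, 14 were higher (18.4%) and 2 lower, with a median of 0.19 against -0.03 over all genes. Of the 146 genes within 150 kb, 19 were higher and 2 lower. Stretches between genes were called more often: of 1167 with at least 3 probes, 84 were higher (7.2%) and 4 lower (0.343%). From 25 to 100 kb, 42 of 64 such stretches were higher (65.6%), with a median of 0.84. The ON pair read higher in 24 of the 25 higher genes, 13 of them by at least 1.5-fold, where 46 of all genes were so called (1%). It also read higher in 80 of the 84 higher stretches, 30 of them by at least 1.5-fold, where 49 of all stretches were so called (4.2%).

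The gene with the highest difference was SPAPJ695.02 (chrI:74452-75910, an uncharacterized protein), with mean levels of -1.12 in wt OFF, 0.26 in clr3-CDx2 OFF, -1.09 in wt ON and -0.42 in clr3-CDx2 ON. Its 5 probes differed by 1.38 (SD 0.24), which is 2.6-fold. SPBPB21E7.11 (chrII:61526-62956, uncharacterized) stood at -0.88 in wt OFF, 0.23 in clr3-CDx2 OFF, -0.75 in wt ON and 0.06 in clr3-CDx2 ON. The next, say1 (SPBPB2B2.02, chrII:4460559-4462134), encodes a sterol deacetylase. Its levels were -1.05 in wt OFF, 0.01 in clr3-CDx2 OFF, -0.69 in wt ON and 0.43 in clr3-CDx2 ON, and its 6 probes had an SD of 0.15. In these 3 genes both clr3-CDx2 arrays lay above both wt arrays.

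Enzymes and transporters were among the other genes called higher. For eno102 (SPBPB21E7.01C, chrII:58136-59690), a second gene for the glycolytic enzyme enolase, the levels were -0.50 in wt OFF, 0.46 in clr3-CDx2 OFF, -0.35 in wt ON and 0.62 in clr3-CDx2 ON. The difference of 0.96 (SD 0.38, 5 probes) was the same in the ON pair (0.96). It depends on where the gene is placed: with 1 offset for the whole arm it was 1.61 in the OFF pair, and cmt2, given next, went from 0.83 to 1.48 and ght7 from 0.81 to 1.22. For nhe1 (SPAC977.10, chrI:51989-53858), the sodium/proton antiporter also called Sod2, the levels were -0.93 in wt OFF, 0.00 in clr3-CDx2 OFF, -0.23 in wt ON and 0.40 in clr3-CDx2 ON. A cysteine transporter, SPBPB10D8.01, 82.2 kb from the left end of chromosome II, differed by 0.88 (SD 0.32, 9 probes). At 92.1 to 97.8 kb from the same end, 3 transporter genes, SPBPB10D8.04C, SPBPB10D8.05C and SPBPB10D8.06C, differed by 0.72, 0.71 and 0.70. The last 3 are similar neighbours, so their probes may not be independent. In the ON pair these 3 differed by 0.54, 0.62 and 0.54, with input parts of -0.49, -0.47 and -0.59. The hexose transporter gene ght7 stood at -0.53 in wt OFF, 0.28 in clr3-CDx2 OFF, -0.74 in wt ON and -0.29 in clr3-CDx2 ON. For cmt2, a catechol O-methyltransferase, the OFF difference was 0.83 and the ON difference 0.78. SPBPB2B2.05, of the glutamine amidotransferase family, differed by 0.88 (SD 0.11, 3 probes), fub2, of the PI31 proteasome regulator family, by 0.86 (SD 0.36, 3 probes) and alr2, an alanine racemase, by 0.69 (SD 0.45, 6 probes).

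**Figure D4:**
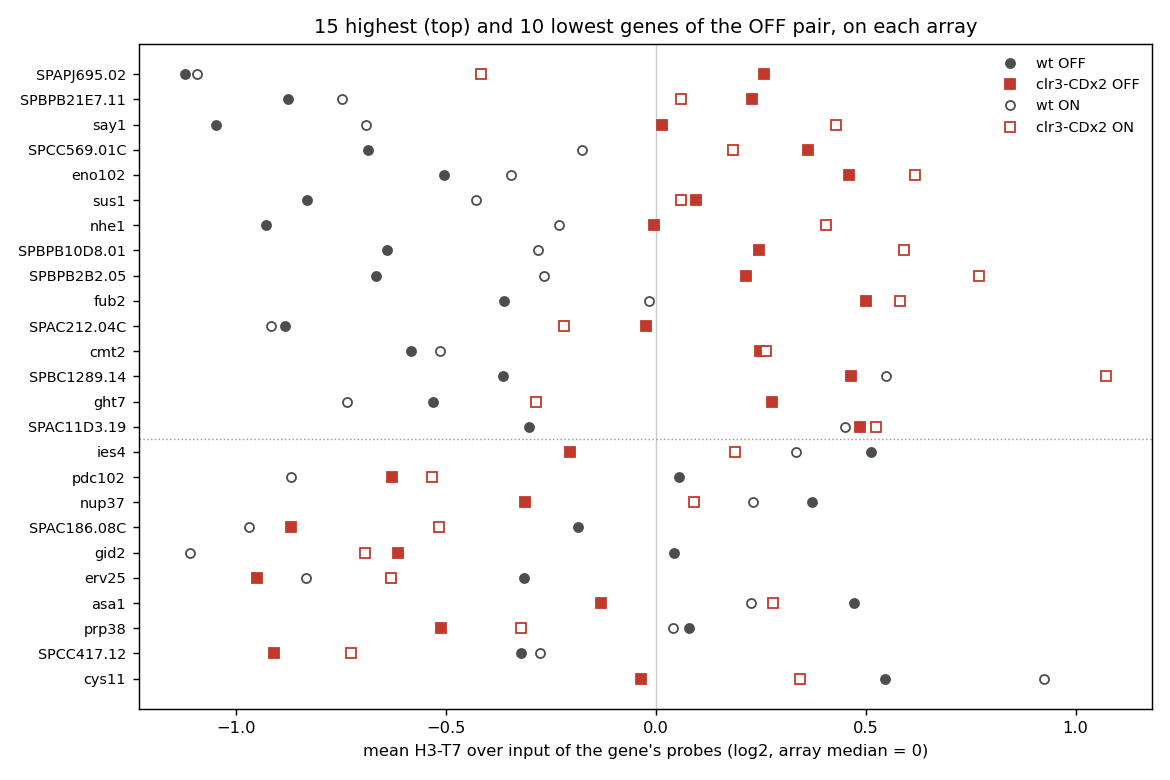
Mean H3-T7 over input (log2, array median at 0) of each gene's probes on the wt arrays (grey circles) and clr3-CDx2 arrays (red squares), OFF filled and ON open, for the 15 highest (above the dotted line) and 10 lowest genes of the OFF pair. The OFF squares lie right of the OFF circles above the line by choice of the genes, and the ON squares lie right of the ON circles in all 15 as well, by 0.07 for SPAC11D3.19 to 1.12 for say1.

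Outside 150 kb of the ends of chromosomes I and II, 6 genes were called higher. On chromosome III these were SPCC569.01C (1.05, 5 probes, all with an f or m suffix) and cwf18 (0.66). On chromosomes I and II they were sus1 (0.93), erd2 (0.78), SPBC83.12 (0.72) and emc5 (0.71), each with 3 probes. The product of sus1 is a subunit of the SAGA and TREX complexes, and that of erd2 is the HDEL receptor that returns proteins to the endoplasmic reticulum. For sus1 the levels were -0.83 in wt OFF, 0.10 in clr3-CDx2 OFF, -0.43 in wt ON and 0.06 in clr3-CDx2 ON. The input itself differed there by -0.31 in the OFF pair and by -0.46 in the ON pair. For erd2 the levels were -0.47, 0.31, 0.67 and 0.43 in the same order of arrays, so that wt OFF was the array that stood apart. Stretches between genes that were called higher at such distances numbered 24 of 811 on chromosomes I and II, among them those between ecm33 and rbx1 (0.78, SD 0.50, 12 probes), hsp104 and pcn1 (0.88, SD 0.22, 4 probes) and hrd3 and toa1 (0.96, SD 0.20, 3 probes). In these 3 the wt OFF values ran from -0.80 to -0.50 and the clr3-CDx2 OFF values from 0.03 to 0.39.

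Within 150 kb of an end, several of the largest differences between genes were next to genes already named. The stretch between eno102 and SPBPB21E7.02C stood at -1.79 in wt OFF, 0.16 in clr3-CDx2 OFF, -0.93 in wt ON and -0.12 in clr3-CDx2 ON, a difference of 1.95 in the OFF pair (SD 0.21, 3 probes). That between grt1 and SPBPB8B6.05C stood at -1.99, -0.45, -1.77 and -0.67 in the same order (1.54, SD 0.13, 10 probes), although grt1 itself differed by 0.13. The stretch between isp5, an amino acid transporter gene, and mmf2 differed by 1.42 (8 probes), that between fub2 and the permease gene nrg1 by 1.37 (12 probes), and that between hhy1 and isp3 by 1.44 (6 probes). In the 15 highest such stretches the ON difference was above 0, from 0.36 to 1.33.

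The lower genes, fewer in these values but not with normexp, were less often on the same side of 0 in the ON pair (5 of 11, against 24 of 25), a difference that was not tested. The 1 lower domain lay at the right end of chromosome I, at array positions 5548801 to 5551260, with 9 probes over pdc102, a pyruvate decarboxylase gene, and SPAC750.01. It averaged 0.07 in wt OFF, -0.86 in clr3-CDx2 OFF, -1.0 in wt ON and -0.59 in clr3-CDx2 ON. The wt OFF array was thus the high one there, and the difference of -0.93 (SD 0.18) in the OFF pair stood against 0.41 in the ON pair. The stretch between both genes differed by -1.10 (SD 0.11, 4 probes). SPAC186.08C, an L-lactate dehydrogenase gene at the same end, stood at -0.19 in wt OFF, -0.87 in clr3-CDx2 OFF, -0.97 in wt ON and -0.52 in clr3-CDx2 ON.

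The other low genes lay far from the ends. For gid2, which encodes a ubiquitin ligase subunit, the levels were 0.04 in wt OFF, -0.62 in clr3-CDx2 OFF, -1.11 in wt ON and -0.69 in clr3-CDx2 ON. The nucleoporin gene nup37 stood at 0.37 in wt OFF, -0.31 in clr3-CDx2 OFF, 0.23 in wt ON and 0.09 in clr3-CDx2 ON. The OFF differences were -0.64 for erv25 (a COPII vesicle protein), -0.60 for asa1, -0.59 for prp38 (a splicing factor), -0.59 for the carboxylesterase gene SPCC417.12 and -0.58 for cys11 (cysteine synthase). Of these 5, prp38, SPCC417.12 and cys11 were also below 0 in the ON pair, at -0.36, -0.45 and -0.58, and erv25 and asa1 were not. The value of cys11 was just under 1.5-fold, its SD over 5 probes was 0.54, and its input part was 0.30 in both pairs. The differences of ies4 (-0.72), SPAC227.17C (-0.92) and chp1 (-0.59) rested on 4 probes with an input change of over 2-fold, 1 each in ies4 and SPAC227.17C and 2 in chp1. Without these probes they were -0.30, -0.10 and -0.08. Of the 11 lower genes, 5 were lower in the ON pair too, none of them by 1.5-fold, where 24 of all genes were (0.522%).

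At clr3 itself H3-T7 was higher in clr3-CDx2 on both pairs. The 8 probes of the gene averaged -0.14 in wt OFF and 0.44 in clr3-CDx2 OFF, and the difference of 0.58 (SD 0.25) was just under 1.5-fold. It was 0.22 at the start codon, 0.93 at 1478 bp into the gene and 0.36 at 2078 bp. In the ON pair the difference was 1.08, with 0.57 at the start codon and 1.45 at 1478 bp. The input part averaged -0.12 over the gene in the OFF pair, but it was -0.48 at 1478 bp and -0.40 at 1178 bp, and 0.55 at 1778 bp and 0.30 at 2078 bp, against an SD of 0.16 over all probes. The Cy5 part was 0.45 at 1478 bp and 0.88 at 1778 bp, so the place of the peak within clr3 differs between ratio and Cy5. The share of the input in this profile was not tested.

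At chp1, which encodes the chromodomain subunit of the RITS complex, 2 adjacent probes set themselves apart from the rest of the gene. They lie 9 and 309 bp from the start codon, and the coding stretch between them is shown because the deviation was seen at these 2 of the 12 probes of the gene. The sequence is the first 300 bases of the coding sequence (chrI:2213560-2213859, minus strand, RefSeq, ASM294v3), with the start codon in capitals.
chp1: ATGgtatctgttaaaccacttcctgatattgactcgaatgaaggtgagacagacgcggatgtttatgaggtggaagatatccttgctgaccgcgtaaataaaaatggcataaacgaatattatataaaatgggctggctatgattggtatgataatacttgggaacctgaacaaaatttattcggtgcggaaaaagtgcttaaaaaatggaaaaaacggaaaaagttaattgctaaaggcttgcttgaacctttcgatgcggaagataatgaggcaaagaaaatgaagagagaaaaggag

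The ratio at these 2 probes averaged 1.89 in wt OFF, -1.22 in clr3-CDx2 OFF, 3.51 in wt ON and 0.65 in clr3-CDx2 ON. Both channels were involved. The Cy5 signal was above the array median on all 4 arrays, at 2.62 in wt OFF, 1.31 in clr3-CDx2 OFF, 3.42 in wt ON and 1.77 in clr3-CDx2 ON. The Cy3 input was 0.72 in wt OFF, 2.52 in clr3-CDx2 OFF, -0.08 in wt ON and 1.12 in clr3-CDx2 ON, and so was higher in both clr3-CDx2 inputs. Over all 41020 probes, these were the 2 whose input was at least 2-fold higher in clr3-CDx2 in both pairs. The other 10 probes of chp1 differed by -0.08 (SD 0.14) in the OFF pair and -0.08 in the ON pair. What sets these probes apart was not tested, and the values there were not read as a change of new H3.

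**Figure D5:**
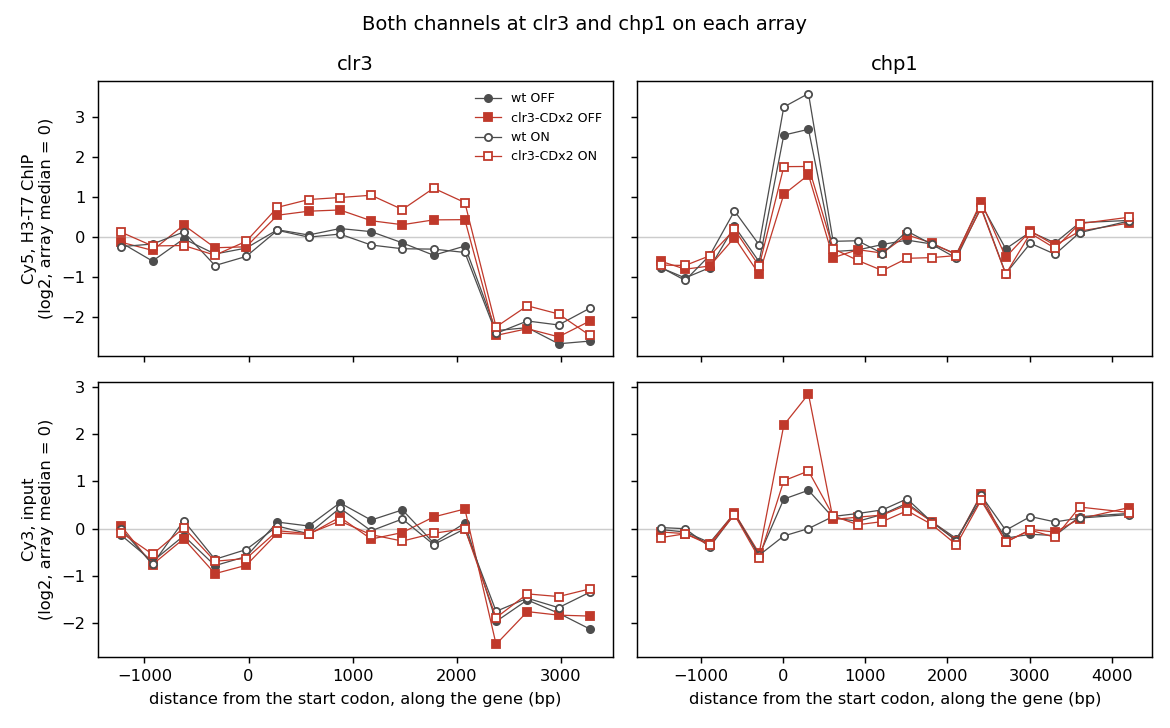
Cy5 (H3-T7 ChIP, top) and Cy3 (input, bottom) signal of single probes, log2 with the array median at 0, along clr3 (left) and chp1 (right) on each of the 4 arrays, by distance from the start codon. At chp1 the probes at 9 and 309 bp stand above the rest in Cy5 on all arrays and reach 2.19 and 2.85 in the clr3-CDx2 OFF input.

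The centromeres kept a low level in both groups. Their 351 probes averaged -1.61 in wt OFF and -1.37 in clr3-CDx2 OFF, a difference of 0.24 (SD 0.37) with a Cy5 part of 0.35 and an input part of 0.11. By chromosome it was 0.26, 0.19 and 0.25. In the ON pair the mean difference was 0.01, and with a normexp background correction of the OFF pair it was 0.05, so its size depended on the starting signal. Parts of the centromeres differed by more than the mean. Higher domains called there differed by 0.64 to 1.04 in the OFF pair and by 0.33 to 0.57 in the ON pair. Their wt OFF levels were very low, from -3.85 to -3.04. Their OFF input parts were 0.14 to 0.26, and 71.4% to 100% of their probes carried an f or m suffix. The mating-type region differed by -0.04 (SD 0.24, 63 probes), probes near tRNA genes by 0.05 (SD 0.32, 248 probes), rDNA ends by 0.13 (SD 0.59, 94 probes) and Tf2 retrotransposons by -0.15 (SD 0.12, 73 probes). At Tf2 the input part was 0.21 and the Cy5 part 0.06.

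Gene groups away from the ends showed shifts of a small size. Of the 6 genes for SHREC components, 0 were called, and clr1 (-0.12), clr2 (0.22), mit1 (-0.07), chp2 (-0.29) and ccq1 (-0.06) lay nearer to 0 than clr3 itself. Among 30 genes of the heterochromatin machinery the median was -0.06, with 0 called higher and 1 lower (chp1, above), and tas3, which encodes another RITS subunit, stood at -0.41. For 6 histone deacetylase genes the median was 0.07, with clr6 at -0.41 (SD 0.54 over 7 probes, input part 0.13) and hst2 at -0.40. The annotated clr6 gene overlaps cys11, given above, so the values of these neighbours may not be independent. The 17 genes of H3 chaperones and remodelers had a median of -0.06 and 0 calls, with pcf3, a chromatin assembly factor subunit, at -0.42. The 8 measured histone genes had a median of -0.11, from -0.29 to 0.27.

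Sugar metabolism was mixed. Of 8 hexose transporter genes, ght7 was called higher and ght5, the main glucose transporter, stood at -0.47. Of 18 measured genes of glycolysis and fermentation, 1 was called higher (eno102) and 1 lower (pdc102), 12 were below 0 and the median was -0.11. In that list fba1 stood at -0.43, pdc101 at -0.39 and adh4 at -0.48. The 4 probes of fba1 had an SD of 0.77, with 50% on either side of 0. Its Cy5 part was -0.21 and its input part 0.22. The 8 galactose and maltose genes, 6 of them above 0, had a median of 0.17 with 0 calls. The list mixes positions: mel1 (0.05) lies 78.6 kb from an end, and agl1 (0.21) and sut1 (0.19) lie in the interior. The 10 measured heat shock genes had a median of -0.18 and 9 were below 0, among them hsp16 (-0.37) and ssc1 (-0.35). Of 7 measured genes of telomere-linked families, ftm2 stood at 0.56, fah1 at 0.20 and tlh1 at -0.14. Medians over the other lists were -0.03 for 11 thiamine-repressed genes, -0.04 for 10 iron genes, 0.05 for 5 phosphate genes, 0.02 for 15 meiotic and island genes, -0.08 for 9 reporter and marker loci and -0.09 for 48 measured ribosomal protein genes. Over all genes the median was -0.03, with 0.544% called higher and 0.239% lower, and no list is called particular from these values.

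A test of genotype was possible over all 4 arrays, with a term for the tethering state. This limma fit has 1 residual degree of freedom per gene and takes most of its spread from the other genes. That 1 degree of freedom is the gap between the OFF and ON differences of the gene. The pairs differ in medium and tethering, so the gap is not a spread over replicates. It called 30 genes higher in clr3-CDx2 (0.652% of 4598) and 6 lower (0.13%) at a Benjamini-Hochberg adjusted p under 0.05. The smallest p-values belonged to genes near chromosome ends. In the limma fit say1 differed by 1.09 (SE 0.12, adjusted p = 0.000212) and eno102 by 0.96 (SE 0.12, adjusted p = 0.000508). SPBPB2B2.05, SPBPB21E7.11, SPBPB10D8.01, SPAPJ695.02, cmt2, SPAC212.04C and nhe1 followed, with differences from 0.78 to 1.03. The clr3 gene was also called, at 0.83 (SE 0.13, limma adjusted p = 0.0038). The lower calls were fba1 (fructose-bisphosphate aldolase, -0.64), cys11 (-0.58), rpl101 (a ribosomal protein gene, -0.57), chp1 (-0.57, resting on the 2 probes described), ilv1 (-0.53) and mug166 (-0.56), with limma adjusted p from 0.0215 to 0.0444. The OFF difference of fba1 varied widely over its probes, as given above. With normexp values, or without the term for tethering state, limma called 0 genes in either direction, while 154 higher and 153 lower, and 60 higher and 51 lower, had an unadjusted p under 0.05. With 1 array left out and no term for state, leaving out the clr3-CDx2 OFF array left 4 higher calls, the clr3-CDx2 ON array 1, and either wt array 0.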

How the data were processed

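Each of the 4 groups is 1 array, so replicates could not be compared. The authors used Agilent Feature Extraction, version 12.0.3.1 per the file headers. Per the file headers, the authors' processed intensity has the background subtracted and the dyes scaled by a linear factor. The log2 ratio in the deposited series matrix equals Cy5 over Cy3 of these signals for 100% of non-control spots, within 1e-06. The deposited flags (score columns of 0 or 1) were used to leave out spots. Both channels of the OFF arrays but only Cy3 of the ON arrays were detrended multiplicatively, per the file headers, and all arrays lay on 1 slide.

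Of 42968 spots, 1417 controls and 531 probes with an outlier flag on any array were left out. The median background-subtracted signal was 7069 to 13946 in Cy3, over a background of 37 to 43, and 4422 to 7695 in Cy5, over 54 to 64. No spot was saturated.

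The array's build was not given in the sources used here. Genes (ASM294v3, RefSeq) were placed by the match of the input signal to GC content in 600-bp windows, with 1 offset per arm (r = 0.259 to 0.347, against at most 0.054 at other offsets) and a local offset in the outer 30 kb of the left arm of chromosome I and the outer 82.5 kb of that of chromosome II. Distances are from the ends of ASM294v3. A gene or stretch is the mean of its probes, at least 3. Named genes are the 15 highest and 10 lowest with at least 80% of probes on one side of 0, genes of the 10 strongest higher domains and of the lower one, the limma calls and list members. Other genes and stretches in the text were chosen after their values were seen. Members and lists were chosen with earlier results of these data known. The normexp alternative (offset 50) used median in place of mean signals, which are not among the columns used here. Python 3.11.15, R 4.3.3 and limma 3.58.1 were used, and the domain rule and the limma fit were tested on simulated data.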

Additional observations from a re-analysis of the deposited data

Results flagged for a closer look

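Results of opposite sign in the OFF and ON pairs are given here. The difference between pairs was not tested, since each pair has 1 array a group, and the pairs differ in medium and tethering. All values are clr3-CDx2 minus wt, OFF first and ON second. Among called genes these were erd2 (0.78 and -0.24), asa1 (-0.60 and 0.054), erv25 (-0.64 and 0.20), gid2 (-0.66 and 0.42), SPAC186.08C (-0.68 and 0.45), pdc102 (-0.68 and 0.34) and SPAC227.17C (-0.92 and 0.35, resting on 1 probe in OFF). Among stretches between genes they were those of pdc102 and SPAC750.01 (-1.10 and 0.49), mtr10 and lcf1 (-0.63 and 0.26), ade10 and trm8 (-0.63 and 0.40), and SPBC215.11C and cwf10 (-0.53 and 0.24). Among regions and end steps they were centromere I (0.26 and -0.025), centromere III (0.25 and -0.010), the mating-type region (-0.042 and 0.20), the rDNA ends (0.13 and -0.34), Tf2 retrotransposons (-0.15 and 0.25), probes of the pNSU clone (0.093 and -0.31), the outer 25 kb at the right end of chromosome I (-0.15 and 0.29) and the step from 125 to 150 kb at the left end of chromosome I (-0.013 and 0.081). On chromosome III they were the steps from 50 to 75 kb (-0.12 and 0.050) and 100 to 125 kb (0.094 and -0.25) on the left, and from 75 to 100 kb (-0.039 and 0.15) and 125 to 150 kb (-0.057 and 0.022) on the right. Several of these values are within the SD over their probes.

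The input channel carried a signal of its own at chp1. Its clr3-CDx2 minus wt difference was 2.04 (OFF) and 1.22 (ON) at the probe 309 bp from the start codon, and 1.57 and 1.17 at the probe 9 bp from it, against an SD over all probes of 0.16 in the OFF pair and 0.22 in the ON pair.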

How the results depend on the processing

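The 76 values of regions and zones under alternatives kept their sign in 75 cases, the exception being the outer 25 kb (0.11, and -0.16 without probes with an f or m suffix), and the 165 values of single genes kept theirs in 165. Counts depended more on the settings. With normexp, 60 genes were higher and 64 lower, 55 stretches between genes higher and 8 lower, and 39 domains lower, and the means between genes 50 to 100 kb from an end went from 0.86 to 0.55. With equal MAD on each array, 24 genes and 11 domains were lower. Before multiplicative detrending, 2 domains were lower. With at least 5 probes, 10 genes were higher and 6 lower, and 0 stretches lower. At 2-fold, 4 genes were higher and 0 lower, 29 stretches higher and 1 lower, and 24 domains higher and 0 lower. With runs of 9 probes, 25 domains were higher. The limma counts of higher and lower genes were 0 and 0 with normexp, 8 and 0 before detrending, 19 and 14 with at least 5 probes per gene, 0 and 0 without the tethering term, and 44 and 19 with equal MAD. Leaving out 1 array at a time, without the tethering term, limma called 0 to 4 genes higher and 0 to 0 lower. The smallest limma adjusted p was 0.000212 in the fit reported and 1.1e-13 to 0.998 over the alternatives. One offset per arm, an alternative chosen after seeing the data, moved eno102 to 1.61, cmt2 to 1.48, ght7 to 1.22, SPAC212.04C to 1.20 and SPBPB21E7.11 to 0.75. No paired analysis was possible because each group has 1 array and so no replicate numbers to pair, but the limma fit compares the genotypes within each tethering state. The cause of these changes was not tested, and the number of arrays limits the precision.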
